A study of Mus musculus with 8 samples.

Results

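The prostanoid receptor genes are the 8 rows of the deposited count table that carry the symbols Ptger1, Ptger2, Ptger3, Ptger4, Ptgir, Ptgfr, Tbxa2r and Ptgdr, out of 32849 symbols in all. They were chosen by name as receptors for prostaglandins and thromboxane, and the rule uses no measured value. Poly(A) RNA from whole frozen mouse esophagus was sequenced in 4 libraries labelled MGL KO and 4 labelled MGL WT (called WT here), and the comparison asked how the genotypes differ in healthy, untreated tissue. MGL, monoacylglycerol lipase, hydrolyzes the endocannabinoid 2-arachidonoylglycerol to arachidonic acid and glycerol. The deletion was global and not restricted to a cell type, and the line was bred with WT littermates. The labels give neither age nor sex for these libraries and do not tie them to animals, while the study describes its replicates as esophagi.

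Prostanoids are short-lived lipid mediators that cyclooxygenases and terminal synthases make from arachidonic acid. Each acts near its source on G protein-coupled receptors: PGE2 on EP1 to EP4, prostacyclin on IP, PGF2α on FP, thromboxane A2 on TP and PGD2 on DP1 and on the unrelated receptor CRTH2. EP2, EP4, IP and DP1 couple to Gs and raise cyclic AMP, EP3 couples mainly to Gi and lowers it, and EP1, FP and TP raise intracellular calcium, FP and TP through Gq. In the gut wall these receptors are known to act on smooth muscle tone, vessels, sensory nerves, epithelium and immune cells.

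Libraries held 13479069 to 17090152 counts in total, and 14864 genes passed the filter on low counts. Expression is given as normalized CPM, counts scaled to library size with TMM factors, and as CPM per kb of merged exons where genes are compared with each other. Mgll, the targeted gene on chromosome 6, was at 13.7 ± 1.54 normalized CPM (SD, n = 4) in MGL KO and 81.2 ± 9.97 (SD, n = 4) in WT esophagi, or 16.9% of WT. Summed Y-linked expression lay between 185.6 and 223.7 normalized CPM in all 8 libraries. All skeletal muscle, smooth muscle and basal squamous markers had counts in every library, with the smooth muscle gene Tagln at only 0.36 to 1.11 normalized CPM, and 1 of the 8 differentiated squamous markers was at 0 in each of MGL KO replicates 2 and 4. MGL KO replicate 4 stood apart by 7507 normalized CPM over 8 airway genes, against 7.67 to 59.0 in the other 7 libraries.

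The receptor genes were weakly expressed in the esophagus, and 6 of the 8 passed the filter on low counts. Over the 4 WT libraries, Ptgir, which encodes the prostacyclin receptor IP, had the highest level per length, at 1.94 ± 0.28 CPM per kb (SD, n = 4), which was above 36.6% of the 14571 tested genes with a known length. Ptger3, the gene for EP3, followed at 0.97 ± 0.57 CPM per kb (SD, n = 4). Ptger4, the gene for EP4, was at 0.67 ± 0.14 (SD, n = 4), and Ptgfr, the gene for FP, at 0.41 ± 0.13 CPM per kb (SD, n = 4). Tbxa2r, the gene for TP, was at 0.32 ± 0.12 (SD, n = 4), and Ptger2, the gene for EP2, at 0.28 ± 0.087 CPM per kb (SD, n = 4). Each of these 6 genes overlapped with its neighbour in this order, although Ptgir lay above Ptger3 in all 4 and Ptger4 above Ptgfr in all 4 WT libraries. Ptger1, the gene for EP1, was lower without overlap, at 0.099 ± 0.041 CPM per kb (SD, n = 4). Ptgdr, the gene for DP1, was the lowest, at 0.0095 ± 0.011 CPM per kb (SD, n = 4). The order of the 8 genes was the same when the longest annotated transcript replaced merged exons.

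The receptor that led differed between libraries. Ptgir ranked first in all 4 WT libraries and in MGL KO replicates 1 and 3. Ptger3 ranked first in MGL KO replicate 2, where it made up 48.1% of the summed receptor level per kb, and Ptgfr ranked first in MGL KO replicate 4, where it made up 42.8%. The summed level of all 8 receptors lay between 3.99 and 4.80 CPM per kb in MGL KO and between 3.95 and 6.02 in WT libraries. Receptors coupled to Gs held between 34.6% and 62.2% of that sum in MGL KO and between 58.4% and 70.3% in WT libraries, and MGL KO replicates 1 (62.2%) and 3 (55.5%) were nearer to the WT libraries than replicates 2 (40.9%) and 4 (34.6%). The share of Ptger3, coupled to Gi, ranged from 15.4% to 48.1% in MGL KO and from 9.52% to 29.0% in WT libraries.

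**Figure D1:**
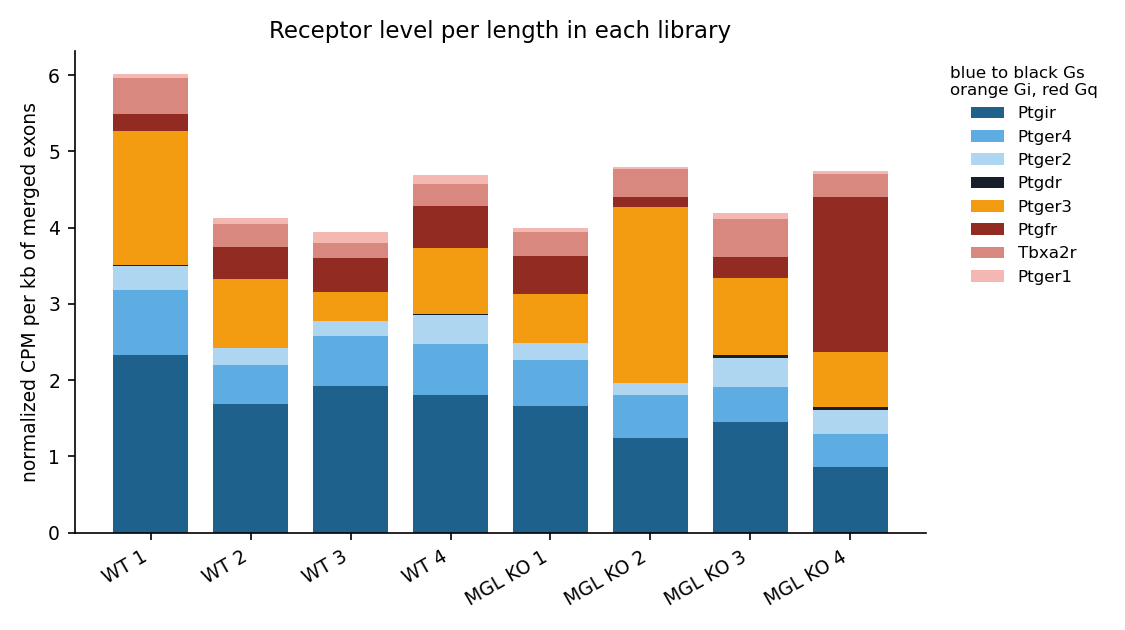
Level of the 8 receptor genes in each library as stacked bars, in normalized CPM per kb of merged exons. Blue to black stands for Gs, orange for Gi and red for Gq, where Ptger1 is grouped with Ptgfr and Tbxa2r as a receptor that raises calcium. Ptgir is the largest block in every WT library, while Ptger3 is the largest in MGL KO replicate 2 and Ptgfr in MGL KO replicate 4.

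Between the genotypes, no receptor gene passed the test, and Ptgir came nearest. In the quasi-likelihood test of edgeR, 0 of the 6 tested receptor genes had an adjusted p under 0.05, as compared with 0.0471% of all tested genes (7 of 14864), of which 0.0202% were higher and 0.0269% lower in MGL KO. By DESeq2, limma-voom with quality weights and the exact tests of edgeR the number was also 0. At an unadjusted p under 0.05 there was 1, Ptgir, where 8.65% of all tested genes reached this. Of the 6 log2 fold changes, 3 were positive and 3 negative, with a median of 0.07, near the median of 0.02 over all tested genes.

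Ptgir, on chromosome 7 of GRCm39 from 16640415 to 16644848 (forward strand), was at 5.57, 4.15, 4.87 and 2.87 normalized CPM in MGL KO replicates 1 to 4. In WT replicates 1 to 4 it was at 7.81, 5.65, 6.44 and 6.06. Every MGL KO library thus lay below every WT library, but the gap between MGL KO replicate 1 and WT replicate 2 was small. Groups that do not overlap were found for 1 of the 8 receptor genes and for 6.02% of all tested genes, with MGL KO the lower in 3.3%. The MGL KO mean was 67.2% of the WT mean, and the log2 fold change was -0.57 (standard error 0.25, 95% interval -1.13 to -0.017), and the quasi-likelihood test of edgeR gave an unadjusted p of 0.0447 and an adjusted p of 0.575. A two-sided exact permutation test over the libraries gave p = 0.0286, below which 4 against 4 libraries cannot go. Any gene whose groups do not overlap gets this p, so it adds nothing to the lack of overlap. When each library was left out in turn, the estimate lay between -0.71 and -0.41.

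Ptgir is known to be expressed in vessels, smooth muscle and stromal cells, and marker genes of some of these cells, and of macrophages, had the same sign. Smooth muscle markers did not, with 5 positive and 3 negative log2 fold changes, a median of 0.055 and sums of 6136 to 13326.5 normalized CPM in MGL KO and 6215 to 10049 in WT libraries. All 8 endothelial, all 7 fibroblast and all 8 macrophage markers had a negative log2 fold change, where 47% of all tested genes did. Their median log2 fold changes were -0.30, -0.31 and -0.89, and 0 of them had an adjusted p under 0.05. An unadjusted p under 0.05 was reached by 2 of 8 endothelial, 2 of 7 fibroblast and 7 of 8 macrophage markers, and by 8.65% of all tested genes. Summed fibroblast expression was 1268 to 2992 normalized CPM in MGL KO and 1859 to 2935 in WT libraries, and summed endothelial expression 179.2 to 328.7 and 245.6 to 336.3. Summed macrophage expression was 196.5 to 245.2 in MGL KO and 216.0 to 638.1 in WT libraries. With the mean of the fibroblast, endothelial or macrophage list as a covariate, the log2 fold change of Ptgir was -0.46, -0.59 or -0.42. Standard errors were 0.28, 0.30 and 0.31, and edgeR gave unadjusted p of 0.141, 0.0869 and 0.212, against 0.0447 without a covariate. These 3 fits were chosen after the data were seen. No marker of these lists was at 0 in any library, and the part of these cells in the Ptgir difference was not otherwise tested. In whole tissue, fewer cells of a type and less RNA per cell cannot be told apart.

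Among the genes for PGE2 receptors, none passed the test, and Ptger4 had a lower mean in MGL KO with groups that overlapped. Ptger4, on chromosome 15 from 5236142 to 5273673 (reverse strand), was at 4.04, 3.79, 3.02 and 2.92 normalized CPM in MGL KO replicates 1 to 4 and at 5.63, 3.42, 4.405 and 4.43 in WT replicates 1 to 4. Only WT replicate 2 lay within the range of the MGL KO libraries, and without it the groups did not overlap. The log2 fold change was -0.38 (standard error 0.23, 95% interval -0.91 to 0.15, edgeR adjusted p = 0.665). It stayed between -0.49 and -0.25 with 1 library left out in turn.

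Ptger3, on chromosome 3 from 157272492 to 157352099 (forward strand), varied most among the EP genes. It was at 4.04, 14.5, 6.41 and 4.61 normalized CPM in MGL KO replicates 1 to 4 and at 10.99, 5.71, 2.37 and 5.41 in WT replicates 1 to 4. MGL KO replicate 2 and WT replicate 1 were high, WT replicate 3 was low, and the groups overlapped over most of their range. The log2 fold change was 0.26 (standard error 0.53, 95% interval -0.93 to 1.45, edgeR adjusted p = 0.895). Without MGL KO replicate 2 it was -0.29 and without WT replicate 1 it was 0.71, so its sign depended on 1 library. MGL KO replicate 2 also had the highest summed skeletal muscle expression (88558 normalized CPM, against 35098 to 74409 elsewhere) and the lowest of differentiated squamous genes (2221 against 3235 to 15855), whose part in the Ptger3 value was not tested. WT replicate 1 held 46079 and 6929 normalized CPM of these lists. WT replicate 3, with the lowest Ptger3, was next to MGL KO replicate 2 in both, at 74409 and 3235.

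Ptger2, on chromosome 14 from 45225652 to 45241277 (forward strand), was at 1.10, 0.81, 1.97 and 1.63 normalized CPM in MGL KO and at 1.67, 1.14, 0.99 and 1.96 in WT replicates 1 to 4. The groups covered nearly the same range, with an estimate of -0.049 on the log2 scale (standard error 0.36, 95% interval -0.87 to 0.78, edgeR adjusted p = 0.973). The interval allows anything between 0.55 and 1.71 times the WT level.

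Ptger1, on chromosome 8 from 84393264 to 84399384 (forward strand), had 5, 2, 7 and 4 counts in MGL KO and 5, 8, 12 and 10 counts in WT replicates 1 to 4, and did not pass the filter. This equals 0.29 ± 0.11 normalized CPM (SD, n = 4) in MGL KO and 0.54 ± 0.22 (SD, n = 4) in WT esophagi, and the libraries overlapped through WT replicate 1. In a fit without the filter, the log2 fold change was -0.90 and the edgeR adjusted p 0.675. At so few counts, and with the use of strand in counting not given in the sources used here, the level of Ptger1 is uncertain. Ptger4 shares 229 exon bases (3.44%) with Ttc33, a gene on the opposite strand.

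Ptgfr, the gene for the PGF2α receptor, had the widest spread of the 8 genes, and 1 library set it. It lies on chromosome 3 from 151502139 to 151543267 (reverse strand) and was at 3.43, 0.90, 1.85 and 13.8 normalized CPM in MGL KO replicates 1 to 4 and at 1.56, 2.85, 3.09 and 3.72 in WT replicates 1 to 4. Apart from MGL KO replicate 4, with 245 counts, the libraries of the groups overlapped. Its estimate of 0.84 on the log2 scale (standard error 0.74, 95% interval -0.83 to 2.51, edgeR adjusted p = 0.754) became -0.42 (standard error 0.47, adjusted p = 0.737) without that library. MGL KO replicate 4 is the library with the high airway expression, and the part of airway RNA in its Ptgfr counts was not tested.

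Tbxa2r, the gene for the thromboxane receptor, lies on chromosome 10 from 81163948 to 81171025 (forward strand). It was at 1.22, 1.44, 1.97 and 1.18 normalized CPM in MGL KO and at 1.90, 1.20, 0.79 and 1.17 in WT replicates 1 to 4. The groups overlapped, and the difference was 0.20 on the log2 scale (standard error 0.34, 95% interval -0.57 to 0.96, edgeR adjusted p = 0.874). With 1 library left out the estimate lay between 0.011 (without MGL KO replicate 3) and 0.46 (without WT replicate 1), and it was 0.037 without WT replicate 3. Expression was thus not shown to differ, and the interval reaches from 0.68 to 1.94 times the WT level.

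Ptgdr, on chromosome 14 from 45088692 to 45096838 (reverse strand), was close to the limit of detection. It had 0, 0, 2 and 2 counts in MGL KO and 1, 0, 0 and 1 counts in WT replicates 1 to 4. A count of 0 allows up to 3 counts, which equal 0.18 and 0.27 normalized CPM in MGL KO replicates 1 and 2 and 0.17 and 0.20 in WT replicates 2 and 3, for counting error only. A difference in Ptgdr was not detectable at this depth. Ptgdr2, the gene for CRTH2 on type 2 lymphocytes, eosinophils and basophils, was as scarce, with at most 4 counts in a library. Of the other genes listed with it as partners, Ptgfrn, a regulator of FP, and Pparg, a nuclear receptor bound by PGD2 metabolites, had log2 fold changes of 0.15 and 0.80, with edgeR adjusted p of 0.862 and 0.752.

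**Figure D2:**
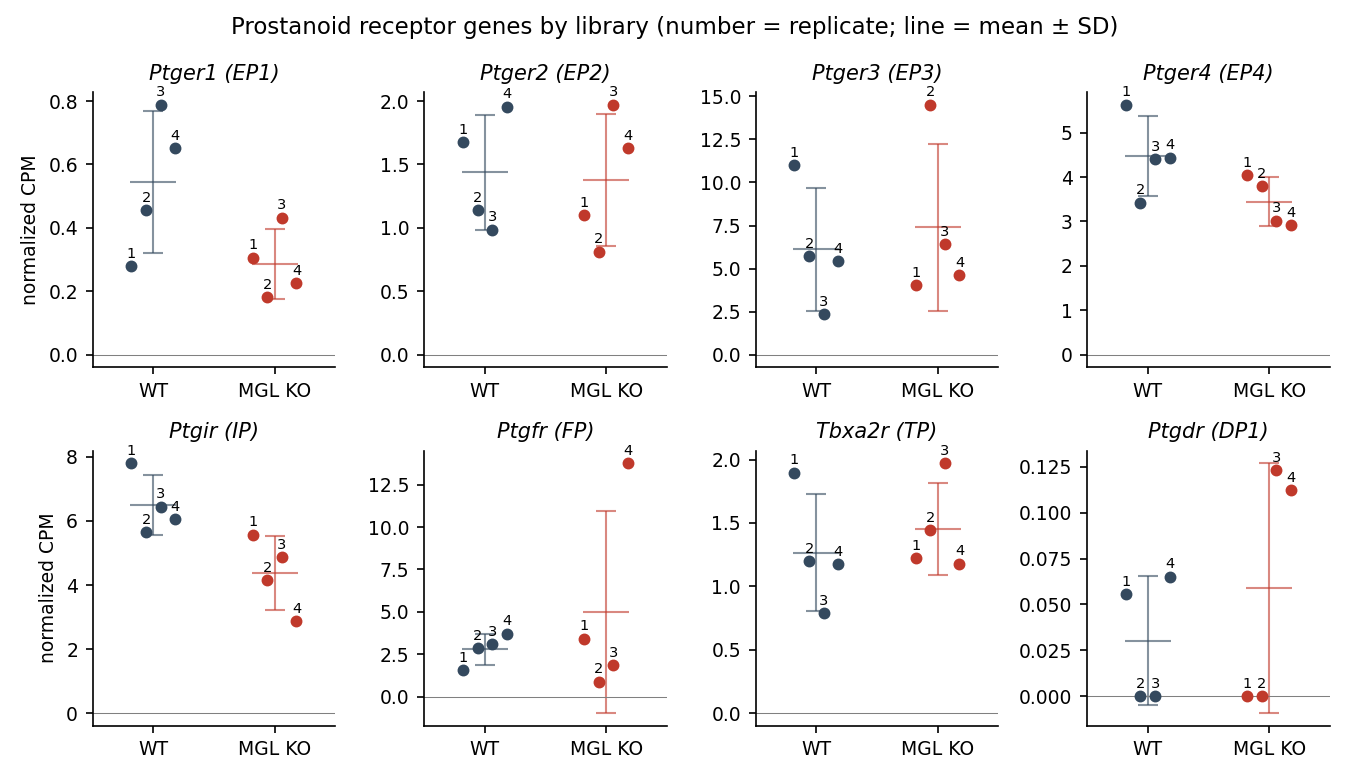
Normalized CPM of each receptor gene in the 4 WT (dark) and 4 MGL KO (red) libraries, each panel with its own linear axis, points numbered by replicate, and lines for the mean ± SD. The groups are separate for Ptgir alone, while MGL KO replicate 4 stands at 13.8 for Ptgfr and MGL KO replicate 2 at 14.5 for Ptger3.

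**Figure D3:**
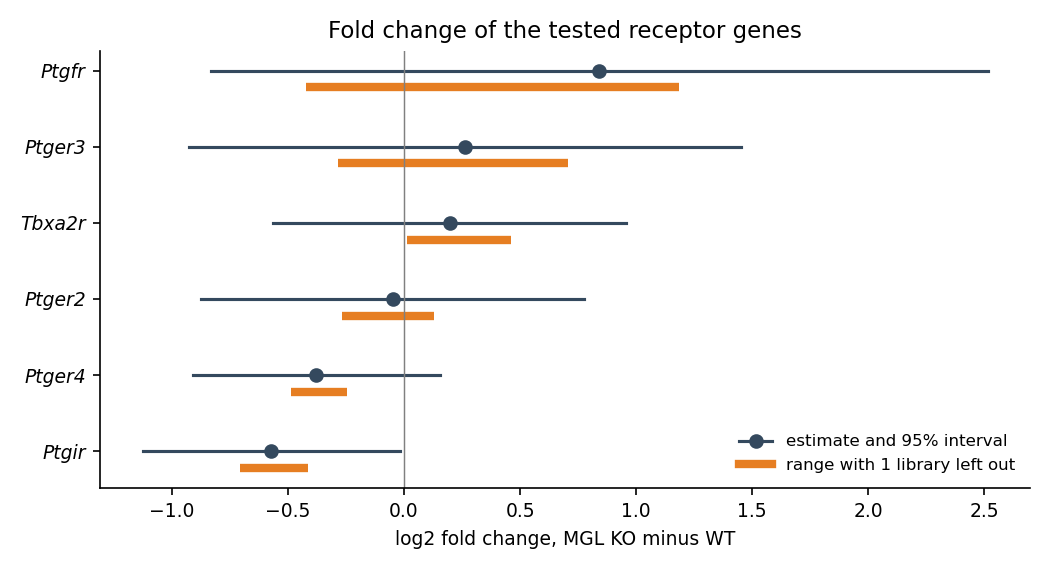
Log2 fold change (MGL KO minus WT) of the 6 tested receptor genes, with points for the estimate, dark lines for the 95% interval and orange bars for the range with 1 library left out in turn. The unadjusted interval of Ptgir ends at -0.017, the other intervals include 0, and the orange bars of Ptgfr, Ptger3 and Ptger2 cross 0.

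Of the enzymes and transporters that make and clear the ligands, 12 of 13 and 6 of 6 genes were tested. Of these 0 passed the test, where 0.0471% of all tested genes did, with 8 positive and 10 negative log2 fold changes. Ptges3, of the synthesis genes, had a positive log2 fold change of 0.39 (standard error 0.16, edgeR adjusted p = 0.55), with groups that overlapped. Ptgis, the prostacyclin synthase, was at 47.4 ± 3.41 normalized CPM (SD, n = 4) in MGL KO and 62.4 ± 11.2 (SD, n = 4) in WT esophagi. Its libraries overlapped only between MGL KO replicate 2 (52.1) and WT replicate 2 (51.9), and its difference was -0.40 on the log2 scale, with a standard error of 0.13 and an edgeR adjusted p of 0.503. With the fibroblast, endothelial or macrophage list as a covariate, fits chosen after the data were seen, that difference was -0.37, -0.41 or -0.17. Ptgis and Ptgir thus had the same sign, and neither passed the adjusted threshold. Hpgd, which encodes 15-hydroxyprostaglandin dehydrogenase, the main enzyme of prostaglandin breakdown, was at 24.1 ± 6.95 normalized CPM (SD, n = 4) in MGL KO and 49.4 ± 10.6 (SD, n = 4) in WT esophagi. No MGL KO library (at most 34.1) reached the lowest WT library (34.6), and Hpgd differed by -1.03 on the log2 scale, with a standard error of 0.22 and an edgeR adjusted p of 0.306. The exact test on filtered genes (adjusted p = 0.0138) and DESeq2 (adjusted p = 0.00615) called Hpgd.

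In WT esophagi the cyclooxygenase gene Ptgs1 was at 24.0 ± 5.70 normalized CPM (SD, n = 4), and the inducible Ptgs2 at 1.93 ± 0.37 (SD, n = 4). Ptgs2 was at 4.84, 1.35, 1.05 and 3.77 in MGL KO replicates 1 to 4, on both sides of the WT range of 1.58 to 2.34. Log2 fold changes were -0.26 for Ptgs1, 0.52 for Ptgs2 and 0.34 for Ptges, the inducible PGE2 synthase, and edgeR gave them adjusted p of 0.721, 0.766 and 0.767. Tbxas1, the thromboxane synthase, was high in WT replicate 1 (14.7 normalized CPM, others of the group at most 7.17), the library with the highest macrophage expression, and had an adjusted p of 0.640. For PGD2, Hpgds had a WT level of 4.63 ± 1.85 normalized CPM (SD, n = 4) and an adjusted p of 0.900, whereas Ptgds did not pass the filter.

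Downstream of the receptors, genes of the G proteins and of the cyclic AMP and calcium arms showed no call. Of the alpha subunits, 8 of 8 were tested and 0 passed. Gnas, the gene for the alpha subunit of Gs, had a WT level of 1267 ± 248.8 normalized CPM (SD, n = 4), with Gnai2 at 189.7 ± 24.3 (SD, n = 4) and Gnaq at 58.5 ± 2.64 (SD, n = 4), with log2 fold changes of 0.15, -0.063 and 0.11. None of the 23 tested genes of the cyclic AMP arm (adenylyl cyclases, protein kinase A, Epac proteins, Creb1 and phosphodiesterases) passed, nor any of the 17 listed with the calcium arm or of the 7 receptor kinases and arrestins. An unadjusted p under 0.05 was reached by 0, 2 and 1 genes of these lists, and by 8.65% of all tested genes.

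Genes that respond to cyclic AMP and CREB held the pathway's 1 call in the quasi-likelihood test of edgeR. Of the 11 tested, 9 had a positive log2 fold change, with a median of 0.53, and in 4 (Dusp1, Fos, Fosb and Nr4a3) the groups did not overlap, as compared with 6.02% of all tested genes. The list was chosen with earlier results of these data known, so these counts are a description only. Dusp1, a phosphatase gene of mitogen-activated protein kinases, rose by 1.80 on the log2 scale (standard error 0.21, edgeR adjusted p = 0.0494). Dusp1 and Fos were named by the study from these libraries, by the exact test of edgeR, and are not independent evidence of the list's direction. For both genotypes the study also reported quantitative PCR of Dusp and Fos in esophagi. In the quasi-likelihood test used here, Fos had an adjusted p of 0.238. Both exact tests also called Fos, and DESeq2 called Fos and Fosb. Nr4a1, an orphan nuclear receptor gene, was at 104.5 ± 25.4 normalized CPM (SD, n = 4) in MGL KO and 72.4 ± 11.3 (SD, n = 4) in WT esophagi, with an adjusted p of 0.512. Crem, the cyclic AMP response element modulator, had a log2 fold change of 0.34 and an adjusted p of 0.681. These genes also respond to many stimuli other than prostanoids. With 1 library left out the estimate for Dusp1 stayed between 1.56 and 1.91, while its adjusted p was over 0.05 in 7 of these 8 fits, all but that without MGL KO replicate 1, where it was 0.021. DESeq2 gave Dusp1 an adjusted p of 6.11e-12 and the exact test on filtered genes 1.42e-10.

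**Figure D4:**
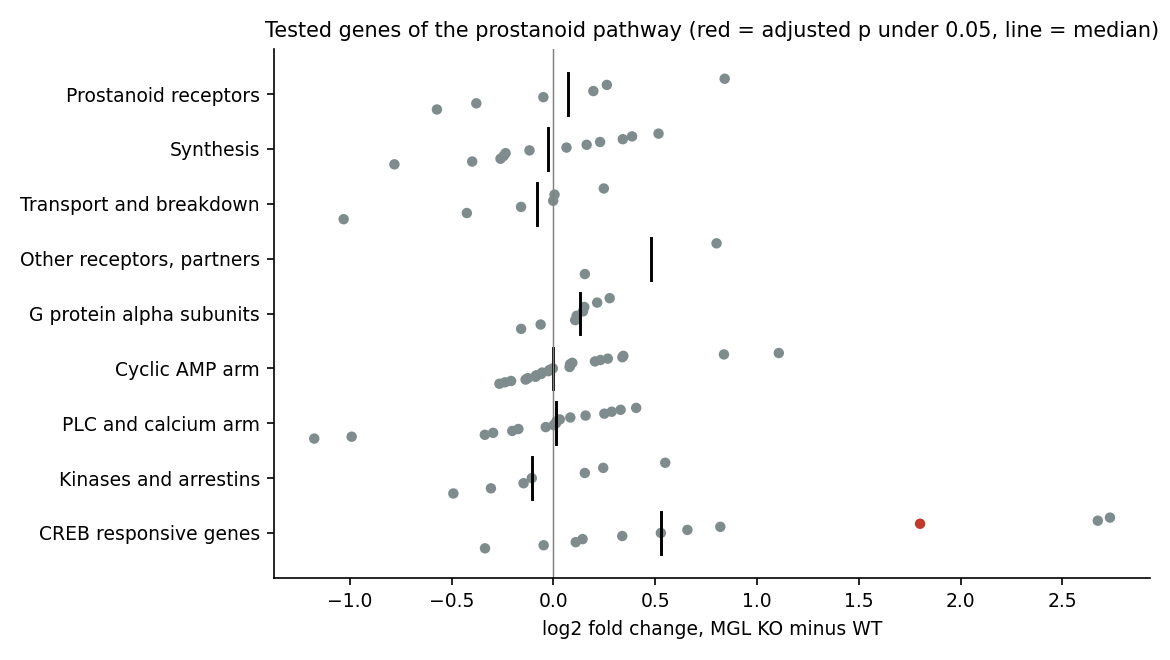
Log2 fold change (MGL KO minus WT) of each tested gene of the receptor list and of 8 lists of the prostanoid pathway, 1 point a gene, with black lines for the list median and red for an adjusted p under 0.05. Dusp1 among the CREB responsive genes is the only red point, and the receptor genes lie on both sides of 0.

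For each tested receptor, the 3 genes with the most similar pattern were taken by Pearson's r of log2(normalized CPM + 1) over the 8 libraries, among tested genes with a mean of at least 5 normalized CPM. These genes are the extremes of 11568 candidates, so r is given as a description. Ptgir was closest to Dcn (r = 0.97), Cnot3 (r = 0.95) and Tbc1d23 (r = 0.93). Dcn, the gene for the matrix proteoglycan decorin, is among the fibroblast markers used above. Dcn was at 498.1, 418.3, 518.9 and 367.5 normalized CPM in MGL KO and at 645.8, 522.6, 559.8 and 582.0 in WT replicates 1 to 4, so the lowest and the highest library of both genes were the same. Ptger4 was closest to Ptgis (r = 0.92), Stt3b (r = 0.90) and 1500011B03Rik (r = 0.89). Ptger3 was closest to Slco2a1, which encodes the prostaglandin transporter (r = 0.95), Mdfic (r = 0.95) and Ncapg2 (r = 0.95). Slco2a1 was highest in MGL KO replicate 2 (21.03 normalized CPM) and WT replicate 1 (14.8) and lowest in WT replicate 3 (5.26), as was Ptger3. Without the 2 libraries farthest from the median of the other gene, r was 0.84 for Ptger3 with Slco2a1, 0.77 for Ptger4 with Ptgis and 0.88 for Ptgir with Dcn.

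Ptger2 was closest to Pxdn (r = 0.97) and Lamb1 (r = 0.95), genes for a basement membrane peroxidase and a laminin chain, and to Kdelr3 (r = 0.95). Ptgfr was closest to Cyp2a5, Serpina9 and Rab36 (r = 0.96 for each), all highest in MGL KO replicate 4. Cyp2a5 was at 342.6 normalized CPM there and at most 7.36 elsewhere, and r was 0.61 for Cyp2a5 without the 2 libraries farthest from its median. Tbxa2r was closest to Tmem104 (r = 0.93), Gpr107 (r = 0.92) and Crtc3 (r = 0.91).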

How the data were processed

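The authors selected poly(A) RNA, checked reads with FastQC 0.11.9, trimmed adapters with Cutadapt, aligned them to GRCm39 with STAR 2.7.10b and deposited whole-number counts per gene symbol and library, without normalization. The counting tool, its annotation and its use of strand are not given in the sources used here.

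Genes were kept by filterByExpr (edgeR 4.0.16, R 4.3.3) at a minimum count of 10, and libraries were scaled by TMM factors between 0.82 and 1.11. The genotypes were compared by the quasi-likelihood test of edgeR, and p-values were adjusted over all 14864 tested genes after Benjamini and Hochberg. Standard errors are the fold change on the log2 scale over the root of F, and 95% intervals use the test's degrees of freedom and are unadjusted. Positions and exon lengths come from GENCODE M39 on GRCm39, where 198 of the 200 genes used were found. Depth was 13479069 to 17090152 counts per library. Between libraries of a group, chi-square per degree of freedom was at least 13.6, and each library was counted as 1 sample.

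The receptor genes and all gene lists were chosen with earlier results of these data known. Genes named were Mgll, the receptors, chosen genes of the pathway lists and any of their genes with a call, and the 3 genes nearest to each receptor. Tagln, Fos, Fosb, Nr4a3, Ptges3, Ptgfrn, Pparg, Creb1 and Ttc33 were named after their values or annotation were seen. Alternatives were the exact test, DESeq2 1.42.0, limma-voom with quality weights per library (limma 3.58.1), a robust fit, other factors and filters, a replicate block, covariates and leaving out each library. The fits were tested on simulated data. Some annotation results are not reported here.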

Additional observations from a re-analysis of the deposited data

Results flagged for a closer look

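Of 44 groups of 4 values over the receptor and named pathway genes, 3 held a library far from the others of its group, where chance gives about 2.2. None of these was a receptor gene. Hpgds was high in WT replicate 1 (7.36 normalized CPM, against at most 4.11 in the rest), Gnas in WT replicate 3 (1637, against at most 1187) and Gnaq in WT replicate 2 (62.4, against at most 57.5).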

How the results depend on the processing

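No receptor gene passed the threshold under any of the 23 alternatives, of which 3, with fibroblast, endothelial or macrophage expression as a covariate, were chosen after the data were seen. Ptgir, Ptger4 and Tbxa2r kept their sign in all 23, but moved from -0.57 to -0.37 for Ptgir in limma-voom with quality weights (called limma-voom here, where the test and the weights changed together), from -0.38 to -0.17 for Ptger4 with the macrophage covariate, and from 0.20 to 0.46, 0.47 and 0.75 for Tbxa2r with the fibroblast, endothelial and macrophage covariates, and Ptger2 did not pass the filter of 10 counts in every library. Ptger2 turned from -0.049 to 0.010 in limma-voom and to 0.34, 0.44 and 0.40 with the fibroblast, endothelial and macrophage covariates, and ranged from -0.27 to 0.13 with 1 library left out. Ptger3 turned to -0.14 in limma-voom and ranged from -0.29 to 0.71 with 1 library left out, and Ptgfr from -0.42 to 1.19. Ptgfr was 0.090 in limma-voom, 0.23 under the replicate block, 0.49, 0.55 and 0.36 with the Y-linked, fibroblast and macrophage covariates and 1.30 with the endothelial covariate, against 0.84. For Ptger3, 0.26 became 0.074, 0.0026 and 1.18 with the fibroblast, endothelial and macrophage covariates and 0.11 with library size alone. The number of receptor genes whose groups do not overlap was 1 under each scaling and 1 to 2 with 1 library left out, Ptger1 joining without WT replicate 1 and Ptger4 without WT replicate 2. Of the pathway lists, 1 gene was called, 3 in both exact tests, 4 with DESeq2, 0 after robust fitting, 0 when no filter was used, 0 with each of the fibroblast, endothelial and macrophage covariates, 1 with the Y-linked covariate, and 0 to 1 when a library was dropped, and the cause was not tested. With the replicate number as a block, 0 receptor and 0 pathway genes were called. Between libraries of the same number, the correlation of deviations from the group mean was -0.17, -0.31, -0.21 and 0.052 over 14864 genes. The labels name no pairing, and these values cannot show whether libraries of the same number share more than the number. Across all genes, 7 were called, 64 in the exact test on filtered genes, 42 in that on all genes, 137 with DESeq2, 25 with limma-voom and 2 after robust fitting, with no filter or under the block. At 2 to 34 counts per library for Ptger1, Ptger2 and Tbxa2r, depth limits what can be detected.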

Other observations

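Of the 18 genes nearest to a receptor in pattern, 2 belong to the pathway lists, namely Slco2a1 beside Ptger3 and Ptgis beside Ptger4, while 78 of the 11568 candidate genes (0.674%) do. In both pairs WT replicate 1 was among the highest libraries. Ptgis was at 78.1 and Ptger4 at 5.63 normalized CPM there, the highest value of all 8 libraries for each. Of the 18 nearest genes, 1 is in the cell type lists, namely the fibroblast marker Dcn beside Ptgir.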
